A study of Mus musculus with 12 samples.

Results

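The RNA of 44 mouse genes that build the constitutive proteasome was followed across 4 treatments of a tumor cell line. The genes were taken by symbol from a fixed list, which was chosen with earlier results of these data known. It held 14 subunits of the 20S core, 18 subunits of the 19S regulatory particle and 8 assembly factors. Beside these were 2 other caps, 1 inhibitor and the transcription factor Nfe2l1. The cytokine-inducible immunoproteasome subunits were not on the list. All 44 were found among the 27179 gene IDs of the count table, and all 44 passed the filter on low counts, which left 12910 genes for testing.

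All 12 libraries came from MC38-idAdpgkG, a line derived from MC38, a colon carcinoma line of the C57BL/6 mouse strain. It carries turboGFP joined to the neoantigen Adpgk(R304M) in a construct that can be switched on with doxycycline and whose product can be degraded with dTAG-13, a small molecule that recruits a ubiquitin ligase to tagged proteins. Every group, the control included, received 20 ng/mL mouse IFNg (interferon gamma). The control had IFNg alone for 51 h, and the doxycycline group had doxycycline (1 µg/mL) beside it over the same 51 h. The dTAG-13 group had IFNg for 48 h and then 1 µM dTAG-13 for 3 h, and the combined group had IFNg and doxycycline for 48 h and then dTAG-13 for 3 h. Each group was 1 treated sample of 1 engineered line, measured in 3 technical replicate libraries, so the p-values measure the spread between libraries and not that between cultures. Neither an untreated group without IFNg nor a line without the construct was analysed here.

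The proteasome degrades proteins marked with ubiquitin. Its core is a barrel of stacked rings, in which the outer alpha rings gate access and the inner beta rings hold the catalytic sites; the 19S particle caps the barrel, binds ubiquitin chains, removes them and unfolds the substrate with a ring of ATPases. Peptides cut by the proteasome feed MHC class I presentation, and interferon gamma is known to induce alternative catalytic subunits. Transcription of the constitutive genes is known to rise through Nfe2l1 when proteasome activity is short.

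Library totals ran from 22165538 to 32809573 counts. Adpgk RNA, which the construct adds to, checked the doxycycline labels but not those of dTAG-13, which acts on the protein. It stood at 158 to 162 CPM (counts per 1000000 counts of the library, its total scaled by edgeR's trimmed mean of M values, TMM) in the 3 control libraries, 177 to 185 in the dTAG-13 libraries, 1316 to 1355 in the doxycycline libraries and 1351 to 1379 in the combined libraries. The colon epithelium markers were nearly absent: all 9 had group means under 1 CPM, Epcam and Cdx2 were at 0 in all 12 libraries, and the 9 summed to 0.282 to 0.939 CPM. All 6 leukocyte markers also had means under 1 CPM (summed 0 to 0.200). The 3 endothelial markers summed to 1.92 to 4.15 CPM. The 5 fibroblast markers summed to 320 to 339 CPM in control, 335 to 351 with doxycycline, 353 to 361 with dTAG-13 and 299 to 316 with both, nearly all from Pdgfra and Dcn, with Col1a1 and Col1a2 under 1 CPM; their part in the results was not tested. In control, doxycycline and the combined group, replicate 3 differed more from the other 2 libraries than these did from each other (chi-square per degree of freedom 4.48 to 8.80 against 2.43 to 2.75). Without the 4 libraries numbered 3, a setting chosen after the data were seen, the members that fell and rose were 27 and 3 for doxycycline against control, 10 and 22 for dTAG-13 against control, 8 and 35 for the combined group against doxycycline, and 1 and 14 against dTAG-13. The share of all genes called in that fit was not worked out, so these counts have no background beside them. Bulk RNA does not separate fewer cells of a type from less RNA per cell.

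**Figure D1:**
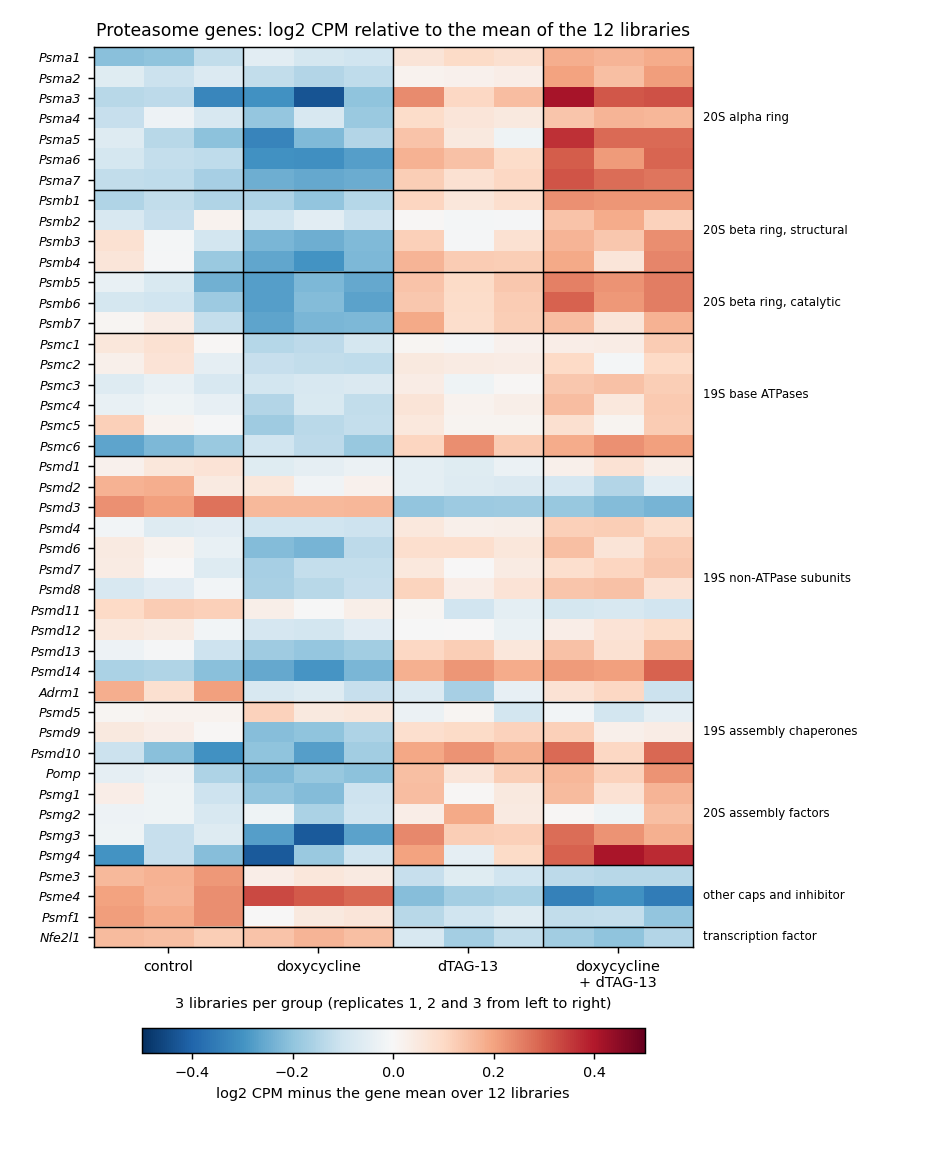
Level of the 44 proteasome genes in each library, as log2 CPM minus the gene's mean over the 12 libraries (color scale from -0.5 to 0.5), with genes in rows by role and the 3 libraries of each group side by side. Most core subunits are below their mean in the doxycycline libraries and above it in both dTAG-13 groups, while Psmd3, Psme3, Psme4, Psmf1 and Nfe2l1 are lower there; the higher values in dTAG-13 against control mostly do not remain after the correction for transcript length and GC content.

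The RNA of most proteasome genes was lower in the doxycycline libraries than in control by a small amount. Of the 44 members, 29 fell and 3 rose against control, where 18.7% of all 12910 genes tested fell and 14.8% rose (edgeR quasi-likelihood test, Benjamini-Hochberg adjusted p under 0.05). The member median was a log2 fold change of -0.11, beside -0.010 over all genes. Largest among the falls were Psmg3, a chaperone of alpha ring assembly (log2 fold change -0.25), the ubiquitin receptor Adrm1 (-0.24) and the structural core subunit Psmb3 (-0.23). The 3 that rose were Psme4 (0.11), Psma1 (0.10) and Psmc6 (0.086). In CPM, 27 members were lower in all 3 doxycycline libraries than in any control library and 3 were higher in all; 24.1% and 19.8% of all genes did so. A correction that removes, in each library, a smooth trend of level with transcript length and GC content gave 31 falls and 1 rise, beside 25.5% and 13.2% of the 11745 genes with a known length. All 29 falls were among the 31, and of the 3 rises only that of Psma1 remained. With scaling by library size alone 20 fell and 4 rose (12.4% and 19.7% of all genes).

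Between dTAG-13 alone and control the members differed in both directions. Against control 25 of 44 rose and 9 fell, where 30.0% of all genes rose and 32.1% fell, with a member median of 0.090 beside 0.019 over all genes. The largest rises were those of Psmd10, an assembly chaperone also named gankyrin (0.40), the ATPase Psmc6 (0.38) and the deubiquitinase Psmd14 (0.37). The largest falls were those of the lid subunit Psmd3 (-0.42), the cap Psme4 (-0.38) and the inhibitor Psmf1 (-0.31). In CPM, 26 members were higher in all 3 dTAG-13 libraries than in any control library and 9 were lower in all, beside 32.2% and 33.3% of all genes. The balance of rises and falls depended on transcript length: after the length and GC correction 4 members were higher and 22 lower (23.4% and 32.7% of 11745 genes). Of the 25 rises 3 were still called higher (Psma7, Psmb6 and Psmd14; with length alone in the correction, Psma7 at 0.040 and Psmb6 at -0.0087 were not called) and 5 were called lower (Psma1, Psma2, Psma4, Psma6 and Psmg1), whereas all 9 falls were still called. Scaling by library size alone moved the median of all genes to 0.110 and gave 32 rises and 8 falls among the members (40.7% and 24.1% of all genes).

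In cells that also had doxycycline, most of the list was higher with dTAG-13 than without it, less so after the length and GC correction. Against doxycycline alone 35 of 44 rose and 8 fell, where 30.7% of all genes rose and 33.4% fell, with a member median of 0.26 beside 0.0032 over all genes. Every one of the 14 core subunits rose, of which 11 were higher and 2 lower after that correction. The largest rises were in Psma3, an alpha ring subunit (0.66), Psmg4, an assembly chaperone (0.59), and Psma6 (0.56), and the largest falls in Psme4 (-0.64), Psmd3 (-0.38) and Nfe2l1 (-0.33). In CPM, 34 members were higher in all 3 combined libraries than in any doxycycline library and 8 were lower in all, beside 32.1% and 35.0% of all genes. After the length and GC correction 25 were higher and 9 lower (25.0% and 28.4% of 11745 genes), with a median of 0.076; all 25 were among the 35, while Psma1, Psmb2 and Psmg2 turned from higher to lower. With scaling by library size alone 36 rose and 8 fell (32.7% and 31.6% of all genes). The 2 dTAG-13 comparisons share no library: 33 members were called in both, 25 of them higher in both, 7 lower in both and 1 (Psmd1) in opposite directions, a same-sign share of 97.0% beside 96.2% for the 6446 genes called in both.

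**Figure D2:**
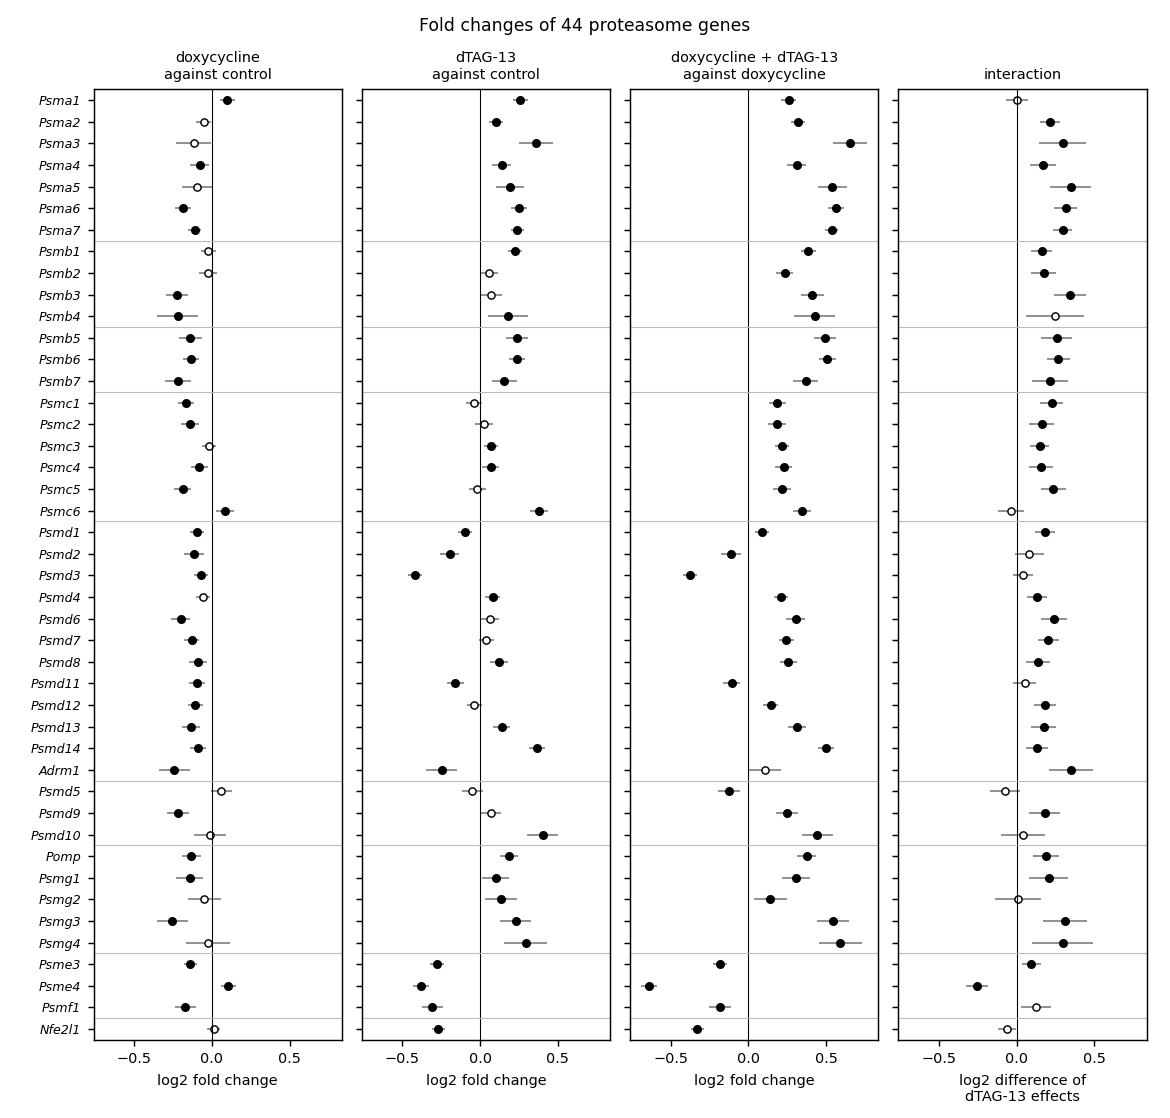
Log2 fold changes of the 44 proteasome genes in 3 pairwise comparisons, and, at right, the log2 difference between the dTAG-13 effects with and without doxycycline. Points are estimates from 3 against 3 libraries, lines are 95% intervals, filled points passed the test, open points did not, and horizontal lines separate the roles; the rightward points in both dTAG-13 panels are mostly shorter transcripts, and most of those in dTAG-13 against control were no longer called higher after the length and GC correction.

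The alpha ring, 7 subunits that form the gate of the core, had called changes in every subunit with dTAG-13. All 7 rose in dTAG-13 against control (median 0.24), where the length and GC correction left 1 higher and 4 lower. All 7 rose in the combined group against doxycycline (median 0.54), where it left 5 higher and 1 lower. With doxycycline alone 3 fell and 1 rose. Among all genes 30.0% rose with dTAG-13 alone, 30.7% rose with it in doxycycline-treated cells, and 18.7% fell and 14.8% rose with doxycycline. After the correction 23.4% of 11745 genes were higher and 32.7% lower with dTAG-13 alone, and 25.0% and 28.4% in doxycycline-treated cells. Psma6 (chromosome 12, 55384222 to 55418459, GRCm38) stood at 233, 228 and 226 CPM in control, 201, 200 and 204 with doxycycline, 279, 274 and 263 with dTAG-13, and 305, 287 and 303 with both. The 4 groups did not overlap, with doxycycline lowest and the combination highest. Its log2 fold change was -0.18 ± 0.026 (SE) for doxycycline (edgeR adjusted p = 4.4e-07), 0.25 ± 0.026 for dTAG-13 (5.44e-11) and 0.56 ± 0.026 for dTAG-13 in doxycycline-treated cells (1.58e-21). The length and GC correction left the fall with doxycycline at -0.19 and the rise in doxycycline-treated cells at 0.16, both called, but turned the change in dTAG-13 against control to -0.078, called lower. With length alone in the correction that change was 0.026 (adjusted p = 0.372).

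Psma7 was the member with the highest level per kilobase in control. It stood at 416, 415 and 404 CPM in control, 383, 380 and 381 with doxycycline, 493, 478 and 487 with dTAG-13 and 564, 551 and 546 with both. Here too the 4 groups were apart in the same order, and the rises of 0.24 ± 0.021 and 0.54 ± 0.022 remained calls after the correction (0.054 and 0.27), the first not with length alone in the correction (0.040). Psma3 stood at 45.6, 45.8 and 40.0 CPM in control, 40.7, 37.1 and 43.6 with doxycycline, 59.2, 53.8 and 55.8 with dTAG-13 and 66.7, 62.2 and 62.6 with both. Control and doxycycline overlapped, and both dTAG-13 groups were above them. Its rise in doxycycline-treated cells, 0.66 ± 0.056, was the largest of all members, while its rise in dTAG-13 against control, 0.36, was 0.077 and not called after the correction, and 0.26 and called with length alone. Psma5 stood at 48.4, 46.0 and 43.8 CPM in control, 40.3, 43.4 and 45.7 with doxycycline, 55.9, 52.4 and 49.8 with dTAG-13 and 65.2, 61.6 and 61.5 with both, so that only control and doxycycline overlapped. Its rise in dTAG-13 against control, 0.19, was not called after either correction (0.0078, and 0.026 with length alone). Its values share 60 exonic bases with an antisense transcript, which unstranded counting would not separate. With doxycycline neither Psma3 (-0.12, adjusted p = 0.121) nor Psma5 (-0.097, adjusted p = 0.123) passed the threshold; without the libraries numbered 3, both passed it, at -0.24 and -0.18.

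Psma1 was the alpha subunit that went the other way with doxycycline. It stood at 191, 192 and 203 CPM in control, 213, 208 and 206 with doxycycline, 231, 236 and 234 with dTAG-13 and 250, 248 and 251 with both. The 4 groups were again apart, now with control lowest. The change was 0.10 ± 0.026 for doxycycline in control cells (adjusted p = 0.00213) and 0.10 ± 0.025 in dTAG-13-treated cells (adjusted p = 0.00333), and the change with dTAG-13 was 0.26 in both backgrounds. After the length and GC correction the dTAG-13 values were -0.062 and -0.12, both called lower, and with length alone in the correction the first was 0.067, called higher, and the second -0.0017, not called.

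The beta rings hold the active sites. Of the 4 structural beta subunits, Psmb3 and Psmb4 fell with doxycycline, Psmb1 and Psmb4 rose with dTAG-13, and all 4 rose with dTAG-13 in doxycycline-treated cells (median 0.40), of which 3 were higher and Psmb2 lower after the length and GC correction. In dTAG-13 against control that correction left Psmb2 and Psmb3 lower and none higher. Of all genes, 18.7% fell with doxycycline, 30.0% rose with dTAG-13 alone and 30.7% rose with it in doxycycline-treated cells. After the correction 32.7% of 11745 genes were lower with dTAG-13 alone, and 25.0% higher and 28.4% lower in doxycycline-treated cells. Psmb3 stood at 147, 138 and 131 CPM in control, 119, 117 and 119 with doxycycline, 151, 139 and 147 with dTAG-13 and 156, 153 and 164 with both. Doxycycline was the lowest group and did not overlap with any other, while control and dTAG-13 overlapped. Its fall with doxycycline was -0.23 ± 0.037 (adjusted p = 2.95e-05), and its change with dTAG-13 was 0.069 ± 0.036 in control cells (adjusted p = 0.103) and 0.41 ± 0.037 in doxycycline-treated cells (adjusted p = 3.66e-10). The correction took the last value to 0.080, still called, but with length alone it was 0.052 and not called (adjusted p = 0.151).

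The 3 catalytic subunits changed in the same directions. Psmb5 carries the chymotrypsin-like site, Psmb6 the caspase-like site and Psmb7 the trypsin-like site, and all 3 fell with doxycycline and rose with dTAG-13 in both backgrounds, the latter in control cells only before the length and GC correction for Psmb5 and Psmb7. Among all genes 18.7% fell with doxycycline, 30.0% rose with dTAG-13 in control cells and 30.7% rose with it in doxycycline-treated cells. Psmb5 (chromosome 14, 54614120 to 54617995) stood at 97.0, 94.7 and 84.4 CPM in control, 82.4, 85.4 and 83.5 with doxycycline, 110, 107 and 109 with dTAG-13 and 119, 116 and 119 with both. Only control and doxycycline overlapped, through control replicate 3. The changes were -0.14 ± 0.036 (adjusted p = 0.00295), 0.24 ± 0.036 (3.12e-07) and 0.50 ± 0.036 (5.01e-15) for doxycycline, dTAG-13 and dTAG-13 in doxycycline-treated cells. Without control replicate 2 the fall with doxycycline was -0.11 and was not called.

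Psmb6 stood at 228, 226 and 214 CPM in control, 200, 208 and 201 with doxycycline, 266, 258 and 265 with dTAG-13 and 297, 282 and 289 with both. No 2 groups overlapped. Psmb7 stood at 299, 305 and 273 CPM in control, 247, 253 and 254 with doxycycline, 338, 315 and 323 with dTAG-13 and 331, 309 and 335 with both. Here both dTAG-13 groups overlapped with each other and lay above control, and doxycycline lay below it. The fold changes of Psmb6 were -0.13, 0.24 and 0.51 and those of Psmb7 -0.22, 0.16 and 0.37, all called. After the length and GC correction the 3 falls with doxycycline and the 3 rises in doxycycline-treated cells were still called (Psmb5 0.20, Psmb6 0.21 and Psmb7 0.11), but in dTAG-13 against control only Psmb6 was (0.055), with Psmb5 at 0.058 and Psmb7 at -0.051; with length alone in the correction these 3 were at -0.0087, -0.020 and -0.024. Psmb7 shares 405 exonic bases with Nek6 on the opposite strand, and RefSeq lists pseudogenes by name for Psma5, Psmb5, Psmb6 and Psmb7, so part of their reads could belong elsewhere.

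**Figure D3:**
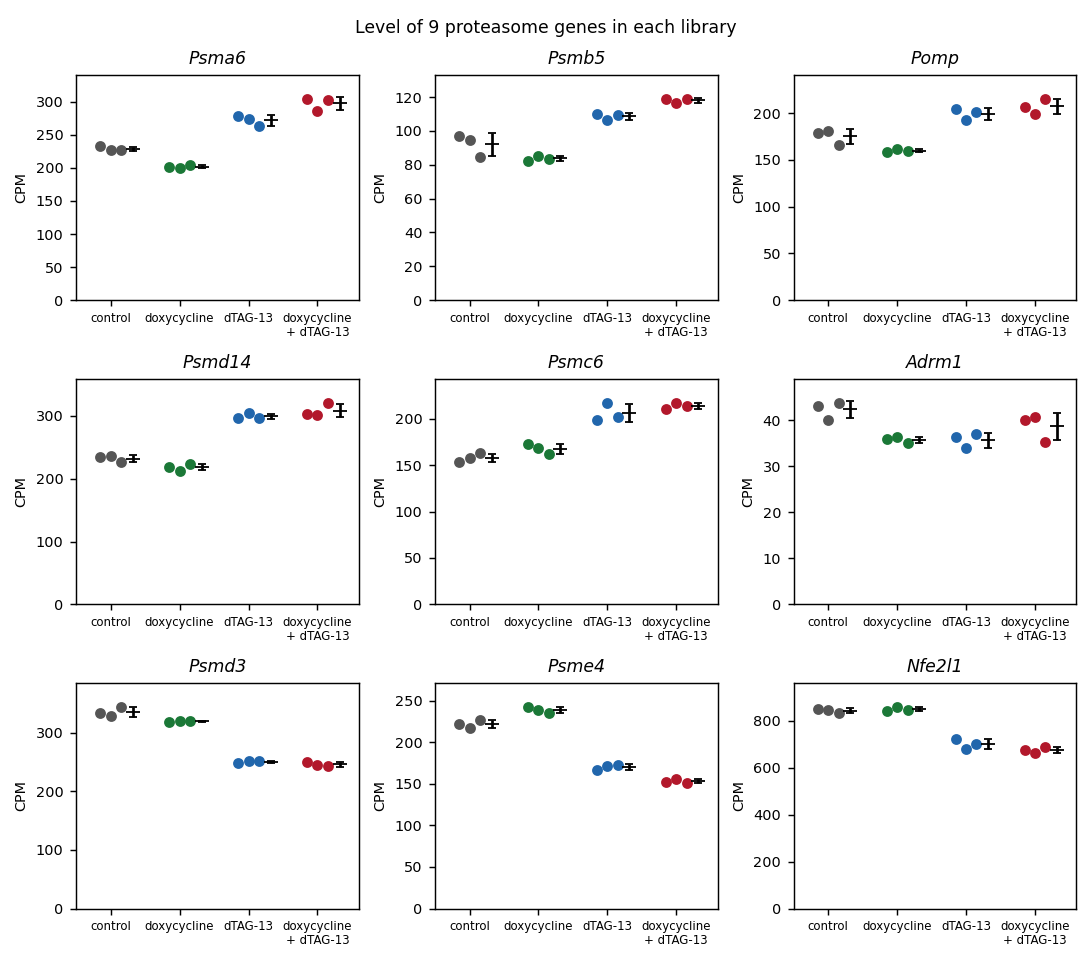
Level in CPM of 9 proteasome genes in each library (points), with the mean ± SD of the 3 libraries of a group beside them (black), on axes that start at 0. Psma6, Psmb5 and Pomp are lowest with doxycycline and highest with both drugs, and Psmd14 and Psmc6 are higher in both dTAG-13 groups, of which only Psmd14 was still called higher in dTAG-13 against control once length and GC content were corrected for, while Psmd3, Psme4 and Nfe2l1 are lower in both.

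The promoters were searched on both strands for the antioxidant response element, the motif bound by Nfe2l1 with its small Maf partners, in the forms TGACNNNGC and TGAGNNNGC. They were also searched for CCAAT, the motif of NF-Y. The RefSeq window of 250 bases before to 50 after the start (GRCm38.p6) was found for 37 of 44 members, with 43 windows. TGACNNNGC was present for 7 members (Psmb5, Psmb6, Psmc6, Psmd12, Adrm1, Psmd9 and Psme4), TGAGNNNGC for 13 and CCAAT for 14; of all 32851 windows, 12.4%, 17.6% and 37.4% held them. The counts are of members and the percentages of windows, and a member can have several windows, so they are not like for like. A match describes the letters only. Sequences are printed for the first 4 of the members described with values here whose match lies before both the RefSeq and the GENCODE start, as the strip around the match, 5′ to 3′ on the gene's strand with the match in capitals: Psma6 at chr12:55384007-55384105 (plus strand, TGAGNNNGC read on the other strand), Psmb3 at chr11:97703379-97703433 (plus strand, TGAGNNNGC), Psmb5 at chr14:54617996-54618087 (minus strand, TGACNNNGC) and Psmc6 at chr14:45329574-45329650 (plus strand, TGACNNNGC read on the other strand).
Psma6: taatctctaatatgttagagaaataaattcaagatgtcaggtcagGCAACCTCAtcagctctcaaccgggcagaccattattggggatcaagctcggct
Psmb3: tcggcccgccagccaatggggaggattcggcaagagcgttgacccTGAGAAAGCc
Psmb5: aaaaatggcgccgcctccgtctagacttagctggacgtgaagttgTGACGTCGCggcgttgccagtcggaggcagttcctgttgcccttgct
Psmc6: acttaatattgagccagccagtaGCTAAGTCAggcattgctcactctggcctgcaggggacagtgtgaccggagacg
The 2 forms of the element differ in the fourth base, so no site counts for both on the same strand. The first 3 belong to the core subunits Psma6, Psmb3 and Psmb5, and the fourth to the ATPase Psmc6. Whether a match goes with the changes in level was not tested. The Psmb3 strip also holds CCAAT, the Psma6 strip holds it on the other strand, and the Psmc6 strip also holds TGAGNNNGC on the gene's strand.

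The base of the 19S particle is built on 6 ATPases, Psmc1 to Psmc6, which unfold substrates. With doxycycline 4 fell and Psmc6 rose, with dTAG-13 3 rose, and with dTAG-13 in doxycycline-treated cells all 6 rose (median 0.22), 3 of them also after the length and GC correction. In dTAG-13 against control the correction left 3 lower and none higher. Of all genes, 18.7% fell and 14.8% rose with doxycycline, 30.0% rose with dTAG-13 alone and 30.7% rose with it in doxycycline-treated cells. After the correction 32.7% of 11745 genes were lower with dTAG-13 alone, and 25.0% higher in doxycycline-treated cells. Psmc6 (chromosome 14, 45329823 to 45349074) differed from the other ATPases in its size of change. It stood at 154, 158 and 163 CPM in control, 173, 169 and 162 with doxycycline, 199, 217 and 202 with dTAG-13 and 210, 217 and 213 with both. Both dTAG-13 groups were above the other 2, which overlapped through doxycycline replicate 3. The rise with dTAG-13 was 0.38 ± 0.030 (adjusted p = 4.97e-14), where the other 5 ATPases ran from -0.039 to 0.069. Its transcript is the longest of the 6 and has the lowest GC content (37.0%), and the length and GC correction took its changes to -0.016 for doxycycline, -0.0049 for dTAG-13 and 0.031 in doxycycline-treated cells, none of them called. With length alone in the correction both dTAG-13 rises were still called (0.32 and 0.31). Its rise with doxycycline (0.086 ± 0.030, adjusted p = 0.0252) was also not called without control replicate 1 (0.062), without doxycycline replicate 1 (0.075) or by DESeq2 (0.081, adjusted p = 0.0705). In the 4 that fell with doxycycline, Psmc1, Psmc2, Psmc4 and Psmc5 (-0.17, -0.14, -0.082 and -0.19), the fall was called after the correction too.

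The 12 other 19S subunits include scaffolds, the lid, ubiquitin receptors and a deubiquitinase, and they differed in direction with dTAG-13. With doxycycline 11 fell (Psmd4 was not called, -0.056). With dTAG-13 alone 4 rose (Psmd4, Psmd8, Psmd13 and Psmd14) and 5 fell (Psmd1, Psmd2, Psmd3, Psmd11 and Adrm1), against 1 and 8 with the length and GC correction. With dTAG-13 in doxycycline-treated cells 8 rose and 3 fell (Psmd2, Psmd3 and Psmd11), against 7 and 2 with the correction. Of all genes, 18.7% fell with doxycycline. With dTAG-13 alone 30.0% rose and 32.1% fell, so both directions were common there. In doxycycline-treated cells 30.7% rose and 33.4% fell. After the correction 23.4% of 11745 genes were higher and 32.7% lower with dTAG-13 alone, and 25.0% and 28.4% in doxycycline-treated cells.

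Psmd14, the deubiquitinase of the lid that strips ubiquitin chains from substrates, had the largest rises of this group. It stood at 235, 236 and 226 CPM in control, 219, 213 and 223 with doxycycline, 296, 305 and 297 with dTAG-13 and 303, 301 and 321 with both. Both dTAG-13 groups were above the other 2 without overlap, and doxycycline was below control. The rises were 0.37 ± 0.026 and 0.50 ± 0.026, and they were still called after the correction (0.073 and 0.20). The fall with doxycycline, -0.089 ± 0.026 (adjusted p = 0.00735), was not called without control replicate 2 (-0.067), without doxycycline replicate 2 (-0.059) or with library size alone (-0.053, adjusted p = 0.125).

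Psmd3, a structural subunit of the same lid, went the opposite way. It stood at 334, 328 and 343 CPM in control, 318, 319 and 319 with doxycycline, 249, 251 and 252 with dTAG-13 and 250, 245 and 243 with both. The 2 dTAG-13 groups overlapped and lay far below the other 2. The falls were -0.42 ± 0.023 (adjusted p = 3.65e-19) and -0.38 ± 0.024 (1.65e-17), and the correction left them at -0.37 and -0.32. Its transcript of 2148 bases is longer than that of Psmd14 (1541 bases). The smaller fall with doxycycline, -0.071 ± 0.023 (adjusted p = 0.0144), was lost without control replicate 3 (-0.057), without doxycycline replicate 1 (-0.059) and without doxycycline replicate 2 (-0.059), as with no filter (-0.062), with these 2 groups alone (-0.058), without all libraries numbered 3 (-0.059) or with library size alone (-0.035, adjusted p = 0.268). Psmd3 shares 17 exonic bases with a gene on the opposite strand.

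Adrm1, a ubiquitin receptor of the base, fell with either drug given alone. It stood at 43.1, 40.2 and 43.8 CPM in control, 35.9, 36.4 and 35.1 with doxycycline, 36.3, 33.9 and 37.0 with dTAG-13 and 40.0, 40.8 and 35.2 with both. All libraries of the 2 single-drug groups were below all control libraries, and replicate 3 of the combined group was within the doxycycline range while its replicates 1 and 2 were above it. The falls were -0.24 ± 0.050 with doxycycline (adjusted p = 0.00018) and -0.25 ± 0.050 with dTAG-13 (4.79e-05), both still called after the correction. dTAG-13 in doxycycline-treated cells gave 0.11 ± 0.052 (adjusted p = 0.0708), and without replicate 3 of the combined group this passed the threshold at 0.17, as it did with RLE size factors (0.12), library size alone (0.13) or the filter at 1 CPM (0.12).

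The 3 chaperones that assemble the 19S base differed from each other. Psmd10 stood at 36.2, 33.8 and 31.6 CPM in control, 33.9, 32.2 and 34.7 with doxycycline, 44.7, 45.7 and 44.1 with dTAG-13 and 47.6, 42.0 and 47.7 with both. Control and doxycycline overlapped, as did the 2 dTAG-13 groups above them. Its rises were 0.40 ± 0.051 (adjusted p = 5.89e-09) and 0.45 ± 0.051 (6.77e-10), and after the correction neither was called (0.071 and 0.097), though both were with length alone in it (0.26 and 0.27). Psmd9 fell with doxycycline (-0.22) and rose with dTAG-13 in doxycycline-treated cells (0.25), and Psmd5 fell in the last comparison (-0.12). After the correction Psmd9 was higher in both dTAG-13 comparisons (0.10 and 0.30), and Psmd5 was not called.

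The 5 assembly factors of the core, Pomp and Psmg1 to Psmg4, changed in the same directions as the core subunits. With doxycycline 3 fell. With dTAG-13 all 5 rose, of which none was higher and Psmg1 lower after the length and GC correction, and in doxycycline-treated cells all 5 rose (median 0.38), of which 3 were higher and Psmg2 lower after it. Among all genes 18.7% fell with doxycycline, 30.0% rose with dTAG-13 alone and 30.7% rose with it in doxycycline-treated cells. After the correction 23.4% of 11745 genes were higher and 32.7% lower with dTAG-13 alone, and 25.0% and 28.4% in doxycycline-treated cells. Pomp, the maturation factor of the unfinished core (chromosome 5, 147860628 to 147875784), stood at 179, 181 and 166 CPM in control, 158, 162 and 160 with doxycycline, 205, 192 and 201 with dTAG-13 and 207, 200 and 215 with both. Doxycycline was lowest and control next, and the 2 dTAG-13 groups overlapped above them. Its changes were -0.13 ± 0.031 (adjusted p = 0.00114), 0.19 ± 0.031 (2.68e-06) and 0.38 ± 0.031 (9.49e-13), and after the correction -0.14 and 0.22 were called and 0.052 for dTAG-13 against control was not. The annotated transcripts of Pomp run from 383 to 3850 bases, so its corrected values rest on a poorly known length.

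Psmg3 stood at 33.4, 31.3 and 32.4 CPM in control, 28.0, 25.3 and 28.1 with doxycycline, 40.0, 36.9 and 36.8 with dTAG-13 and 41.1, 39.5 and 38.3 with both. Doxycycline was lowest, with no overlap, and its fall of -0.25 ± 0.052 (adjusted p = 0.000168) was the largest of all 44. Psmg3 shares 237 exonic bases with Gm26938 on the same strand. Psmg4 was the member with the fewest reads, with a lowest count of 519 and the shortest transcript (514 bases). It stood at 18.3, 20.7 and 19.4 CPM in control, 16.8, 19.8 and 21.0 with doxycycline, 25.8, 21.8 and 24.0 with dTAG-13 and 27.6, 29.8 and 29.1 with both. Control and doxycycline overlapped and the combined group was highest. The change in doxycycline-treated cells was 0.59 ± 0.070 (adjusted p = 5.36e-09), and 0.18 after the correction, still called, but 0.13 and not called with length alone in the correction.

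The alternative caps and the inhibitor fell with dTAG-13 under every scaling tried. Psme3 (PA28 gamma, a nuclear cap that acts without ATP), Psme4 (PA200, a nuclear cap linked to histone turnover) and Psmf1 (PI31, named for inhibition of the core in vitro) all fell in both dTAG-13 comparisons, and after the length and GC correction too. Of all genes, 32.1% fell with dTAG-13 alone and 33.4% in doxycycline-treated cells. After the correction 32.7% and 28.4% of 11745 genes were lower. Psme4 (chromosome 11, 30771775 to 30881150) stood at 222, 217 and 227 CPM in control, 242, 239 and 235 with doxycycline, 166, 172 and 173 with dTAG-13 and 153, 156 and 151 with both. The 4 groups did not overlap, and their order was the reverse of that of Psma6. The changes were 0.11 ± 0.025 with doxycycline (adjusted p = 0.000973), -0.38 ± 0.026 with dTAG-13 (1.81e-16) and -0.64 ± 0.026 with dTAG-13 in doxycycline-treated cells (2.56e-23), and after the correction 0.046 (not called), -0.21 and -0.38. Its transcript of 6491 bases is the longest of the list.

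Psme3 stood at 450, 453 and 466 CPM in control, 410, 418 and 414 with doxycycline, 370, 385 and 374 with dTAG-13 and 366, 365 and 365 with both. No 2 groups overlapped, and control was highest. Psmf1 stood at 87.5, 86.0 and 88.7 CPM in control, 75.6, 78.2 and 78.8 with doxycycline, 68.7, 70.6 and 72.3 with dTAG-13 and 69.5, 69.7 and 66.0 with both. Control was highest, doxycycline next, and the 2 dTAG-13 groups overlapped. The changes of Psme3 and Psmf1 were -0.14 and -0.17 with doxycycline, -0.28 and -0.31 with dTAG-13, and -0.18 for each with dTAG-13 in doxycycline-treated cells, all called.

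Nfe2l1, the transcription factor that raises proteasome genes when proteasome activity is low, fell with dTAG-13. It stood at 853, 848 and 832 CPM in control, 844, 859 and 848 with doxycycline, 722, 680 and 701 with dTAG-13 and 676, 664 and 689 with both. Control and doxycycline overlapped, and the 2 dTAG-13 groups overlapped well below them. The changes were 0.010 ± 0.021 with doxycycline (adjusted p = 0.75), -0.27 ± 0.021 with dTAG-13 (1.9e-14) and -0.33 ± 0.021 in doxycycline-treated cells (3.66e-17); the length and GC correction left values of -0.077 and -0.0985, both called lower. Nfe2l1 is controlled mainly as a protein, through processing and turnover, which RNA counts do not measure.

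The change with doxycycline differed between cells with and without dTAG-13. Each group was 1 treated sample, so here and in the interaction below treatment cannot be told apart from differences between cultures. With dTAG-13 present, 19 members were higher with doxycycline and 1, Psme4, was lower, where 10.7% of all genes rose and 9.64% fell. Of the 14 core subunits 12 rose, all but Psmb4 (0.025) and Psmb7 (-0.0033), and 6 of 18 regulatory particle subunits did, against 5 and 3 after the length and GC correction and 7 and 1 with library size alone. The largest rises were those of Psmg4 (0.27; 0.15 and not called under both corrections), Psma5 (0.25) and Psma7 (0.19), and the fall of Psme4 was -0.15. In CPM, 19 members were higher in all 3 combined libraries than in any dTAG-13 library and 2 were lower in all, beside 17.6% and 16.7% of all genes. After the length and GC correction 8 rose and 1 fell (10.1% and 9.42% of 11745 genes), and with scaling by library size alone 9 rose and 4 fell (7.17% and 16.5% of all genes). Without dTAG-13 replicate 2 the number that fell was 2. Of 12 members called both here and in doxycycline against control, which share no library, 1 had the same sign (Psma1, higher in both) and 11 the opposite, a same-sign share of 8.3%, where it was 72.8% for the 1331 genes called in both.

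That difference was tested as the interaction, the dTAG-13 effect in doxycycline-treated cells minus that in control cells, which uses all 12 libraries and is the same number as the doxycycline effect with dTAG-13 minus that without it. It was positive for 32 members and negative for 1, where 13.2% and 9.64% of all genes were called, with a member median of 0.18 beside 0.0053. The largest values were those of Adrm1 (0.35 ± 0.072, adjusted p = 0.000322), Psma5 (0.35 ± 0.067, adjusted p = 0.000171) and Psmb3 (0.34 ± 0.052, adjusted p = 2.72e-05). The single negative call was Psme4 (-0.26 ± 0.036, adjusted p = 1.07e-06). By role, 12 of 14 core subunits, 14 of 18 regulatory particle subunits and 4 of 5 core assembly factors were positive, against 11, 12 and 2 after the length and GC correction and 9, 7 and 2 with library size alone. Psma1 (0.00030), Psmc6 (-0.034), Psmd3 (0.044), Psmd10 (0.043) and Nfe2l1 (-0.061) were not called. Once length and GC content were corrected for, 28 were positive and 1 negative, 27 of the 28 being among the 32 (16.6% and 7.62% of 11745 genes), and with scaling by library size alone, which moved the median of all genes to -0.066, 18 were positive and 3 negative (6.34% and 18.8% of all genes). Without dTAG-13 replicate 2 the number of negative calls was 2. The call for Psmg4 (0.30) was lost without any of 6 libraries (control 2, doxycycline 1, combined 2 and 3, dTAG-13 2 and 3), that for Psmb7 without doxycycline 1 (0.20), that for Psmd14 (0.13) without doxycycline 2 (0.11) and that for Psme3 (0.095) without doxycycline 1 (0.082), dTAG-13 1 (0.074) or all libraries numbered 3 (0.082). With library size alone the calls for Psmg4 (0.23), Psmb7 (0.14), Psmd14 (0.062) and Psme3 (0.025) were lost. Psmg4 was also lost after the length and GC correction (0.15) and with length alone (0.17). Nfe2l1 was called negative with library size alone (-0.13, adjusted p = 0.000934) and without dTAG-13 replicate 2 (-0.091, adjusted p = 0.0305).

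Summed over the list, the changes were modest. The 44 genes together held 9200 ± 154 CPM in control, 8631 ± 38.0 with doxycycline, 9330 ± 94.7 with dTAG-13 and 9692 ± 141 with both (mean ± SD over 3 libraries). The control and dTAG-13 libraries overlapped, the doxycycline libraries were all lower and the combined libraries all higher. The 20S subunits moved more, from 2793 ± 73.3 in control to 2577 ± 13.1, 3189 ± 50.8 and 3454 ± 71.5 with doxycycline, dTAG-13 and both. The 19S subunits moved less, at 4297 ± 69.5, 4007 ± 24.5, 4269 ± 25.9 and 4406 ± 49.6 in the same order. These sums were not corrected for length and GC content. In dTAG-13 against control, that correction left 2 of the 14 20S genes higher and 6 lower (median -0.026). Of the 18 19S genes it left 1 higher and 11 lower (median -0.097), where 23.4% and 32.7% of 11745 genes were called.

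Transcript length moved with these results. The members are short: their median transcript in GENCODE M21 is 1530 bases (514 to 6491), beside 2692 for the 11745 genes with a known length. Over all genes, shorter transcripts had more positive dTAG-13 fold changes: the median ran from 0.23 in the shortest eighth of genes to -0.29 in the longest for dTAG-13 against control, and from 0.37 to -0.38 in doxycycline-treated cells. The 2 shortest eighths held 28 of the 44 members. Across the 44 members, Spearman's correlation of fold change with length was -0.59 for dTAG-13 against control and -0.66 in doxycycline-treated cells, and 0.28 for doxycycline against control; genes share libraries, so these are descriptions. Of 32 members with transcripts of at most 2000 bases, 23 rose and 1 fell with dTAG-13, and of the 12 longer ones 2 rose and 8 fell. In doxycycline-treated cells the counts were 31 and 0 for the shorter and 4 and 8 for the longer. The share called among all genes of like length was not worked out. For dTAG-13 against control the shorter members had a median of 0.14, beside 0.23 and 0.14 in the 2 shortest eighths of all genes. In doxycycline-treated cells it was 0.31, beside 0.37 and 0.19. The longer members had medians of -0.18 and -0.12 in these 2 comparisons. With doxycycline alone both kinds fell, 22 of 32 shorter and 7 of 12 longer members. Between the 2 groups that both had dTAG-13 the trend was smaller over all genes. For doxycycline in dTAG-13-treated cells the median ran from 0.084 in the shortest eighth to -0.026 in the longest. There 17 of 32 shorter and 2 of 12 longer members rose. Spearman's correlation was -0.23 over all genes and -0.52 over the members, and -0.25 and -0.57 for the interaction. Whether the length trend arose in the cells or in the making of the libraries was not tested. In the 2 dTAG-13 comparisons it cannot be told apart from the treatment, which was the same for all libraries of a group.

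**Figure D4:**
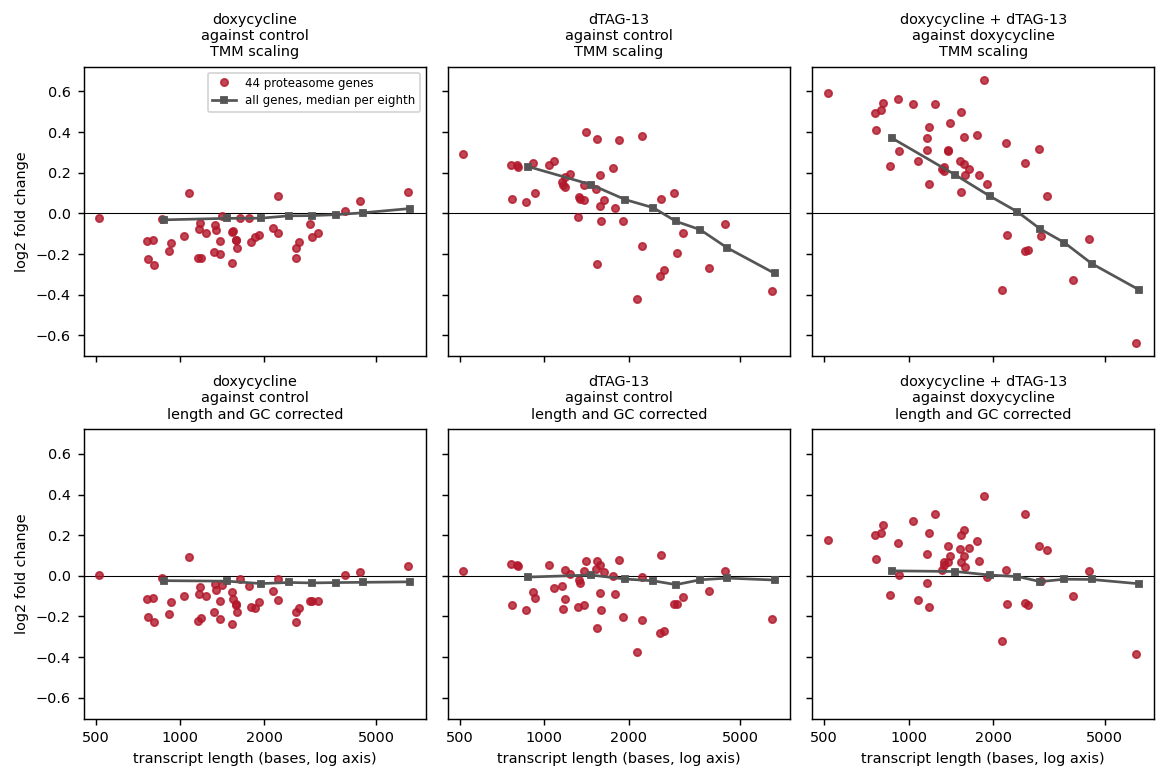
Log2 fold change of the 44 proteasome genes (circles) against transcript length in bases (log axis) in 3 comparisons, with the median of all genes in each eighth of length (squares and line). Top, TMM scaling; bottom, after the length and GC correction, which flattens the line and takes the member median from 0.090 to -0.069 for dTAG-13 against control, from 0.26 to 0.076 in doxycycline-treated cells and from -0.11 to -0.12 for doxycycline against control.

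Levels per kilobase of transcript in control spanned 21.5-fold over the list. Psma7 (398 CPM per kb) was highest, followed by Psmb4 (335), Psmb6 (279), Psmb7 (252), Psma6 (250) and Nfe2l1 (218), and Psmd5 (18.5), Psma3 (23.6) and Psmd10 (24.0) were lowest. The alpha ring spanned 16.8-fold, from Psma3 to Psma7, although its subunits are used in equal numbers in the core. The 3 catalytic subunits spanned 2.3-fold and the 6 ATPases 2.8-fold. The medians were 181 CPM per kb for the 20S subunits, 119 for the 19S subunits, 40.0 for the core assembly factors and 24.0 for the 19S chaperones. These values depend on the transcript assumed: models of Psma3 run from 859 to 2846 bases.

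Of 40 related genes in the table that are not on the list, 38 were tested, and they did not move as one. The 5 genes of the immunoproteasome and its cap PA28 alpha-beta, which interferon gamma induces, all rose in both dTAG-13 comparisons, where 30.0% and 30.7% of all genes rose. After the length and GC correction 3 were higher in control cells (23.4% of 11745 genes). In doxycycline-treated cells 4 were higher and 1 lower after it (25.0% and 28.4% of 11745 genes). Psmb9, an inducible catalytic subunit, was 107, 107 and 102 CPM in control, 119, 128 and 127 with doxycycline, 147, 137 and 137 with dTAG-13 and 164, 166 and 166 with both. Its 4 groups did not overlap, and unlike the constitutive catalytic subunits it rose with doxycycline (0.24 ± 0.031, adjusted p = 5e-08). The other inducible catalytic subunits, Psmb8 and Psmb10, did not share that rise. Psmb10 fell with doxycycline (-0.066, adjusted p = 0.0445), a call that the correction removed (-0.050), and Psmb8 stayed at 0.018 without a call. Of the 5 genes, 2 rose and 1 fell with doxycycline, where 14.8% and 18.7% of all genes did. Psme2, a PA28 subunit, had the largest rise of the 5, 0.61 in doxycycline-treated cells, beside 0.37 in control cells, and was still called after the correction (0.29 and 0.16). Psmb8 and Psmb10 rose by 0.34 and 0.33 with dTAG-13 in doxycycline-treated cells. The summed level of the 5 was 790 ± 23.4 CPM in control, 822 ± 11.8 with doxycycline, 921 ± 15.3 with dTAG-13 and 1037 ± 12.3 with both. The last 2 groups were above the others without overlap.

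The genes that bring ubiquitinated proteins to the proteasome fell with dTAG-13. All 5 ubiquitin shuttle genes fell in dTAG-13 against control and 4 in doxycycline-treated cells, led by Ubqln2 (-0.69 and -0.64) and Ubqln1 (-0.36 and -0.31), and the same numbers were called after the length and GC correction. Over all genes 32.1% fell and 30.0% rose in dTAG-13 against control, and 32.7% and 23.4% of 11745 genes after the correction. In doxycycline-treated cells 33.4% of all genes fell, and 28.4% after it. Of 10 genes for ubiquitin, its activation and the unfoldase Vcp with its cofactors, 5 fell and 2 rose with dTAG-13, against 5 and 1 with the correction. Vcp fell from 299, 303 and 287 CPM in control to 178, 169 and 183 (-0.75 ± 0.027, adjusted p = 4.96e-25), and the change of its cofactor Nploc4 was -0.59. Rps27a, which encodes ubiquitin fused to a ribosomal protein, rose (0.59), and all 3 calls remained after the correction. Of 8 proteasome-associated proteins 3 rose and 3 fell with dTAG-13, against none and 6 with the correction, with Ecpas, an adaptor and inhibitor of the 26S proteasome, at -0.31 and Sem1, a small 19S component, at 0.29. Sem1 was not called after the correction (-0.18).

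Among 10 genes that process, destroy or partner Nfe2l1, none rose and 6 fell with dTAG-13, where 30.0% and 32.1% of all genes did. With the length and GC correction 2 rose and 4 fell (23.4% and 32.7% of 11745 genes). Mafk, a small Maf partner, stood at 82.5, 75.4 and 75.8 CPM in control, 63.4, 62.6 and 62.0 with doxycycline, 60.9, 59.0 and 60.8 with dTAG-13 and 70.3, 69.9 and 72.5 with both. Like Adrm1 it was lower with either drug than in control, and here the combined group lay between them without overlap. The falls were -0.31 and -0.37, and the interaction was 0.55 ± 0.054 (adjusted p = 2.3e-10). Mafg, another small Maf, fell with dTAG-13 in both backgrounds (-0.25 and -0.33), also after the correction. Sel1l, a part of the degradation machinery of the endoplasmic reticulum, rose with doxycycline (0.23), and its interaction was -0.23 (adjusted p = 2.42e-05). Its change with dTAG-13 in doxycycline-treated cells, -0.29, was 0.041 and not called after the correction. Nfe2l2, a related factor for the same motif, rose with doxycycline (0.21) and fell with dTAG-13 (-0.27). Ddi2, the protease that releases Nfe2l1 from the membrane and named here after its values were seen, was -0.20 in dTAG-13 against control and 0.13 after the length and GC correction, called in both, in opposite directions.

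Among the 9061 genes that averaged 10 CPM or more, those whose group means were most like the mean of the members were Pspc1, Dera, Psat1, Pimreg and Rbm34. Pearson's r over the 4 group means was 0.99975 to 0.99995, and 0.908 to 0.993 over the 12 libraries, with 148 genes above 0.99 over the group means. With 4 points that share libraries this is a description only. Not all members follow that mean. Over the 12 libraries, a member's r with the mean of the others ran from -0.957 (Psme4) to 0.982 (Psma6). It was also negative for Nfe2l1 (-0.874), Psmd3 (-0.833) and Psmd5 (-0.821), among others.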

How the data were processed

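Poly(A) RNA of 12 libraries was sequenced, 3 technical replicates for each of 4 treatments. The authors deposited raw read counts per Entrez gene ID, with no normalization. Column names in the deposited table point to Subread alignments, and per the submitters' processing notes bcl2fastq 2.17, featureCounts and build mm10 were used. The sources used here give neither the annotation nor the strand setting nor the rule for reads with several matches. Symbols came from RefSeq (GRCm38.p6; 25275 of 27179 IDs) and lengths, GC content and positions from GENCODE M21.

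Genes were filtered with filterByExpr, scaled by TMM (factors 0.9647 to 1.0349) and tested with the two-sided quasi-likelihood F test of edgeR 4.0.16 in R 4.3.3, with 1 mean per group over all 12 libraries and Benjamini-Hochberg adjustment over 12910 genes, at 0.05. CPM uses the scaled totals. The length and GC correction used splines with 5 degrees of freedom per library, as an offset. On simulated counts for doxycycline against control (12910 genes), 35 of 50 genes changed 1.2-fold, 41 of 50 changed 1.5-fold, 44 of 50 changed 2-fold and 49 of 50 changed 3-fold were called with the right sign, and 10 unchanged genes were called. The simulation changed few genes, in 1 group, with no length trend, unlike the data, so these rates need not hold there. Its smallest change was larger than the member median with doxycycline (log2 fold change -0.11).

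Values per library are given for Psmb5, Psmb6, Psmb7, Pomp, Psme3, Psme4, Psmf1, Nfe2l1 and, per contrast, the 3 called members with the largest positive and negative fold changes; related genes are given as counts per role with up to 4 examples, chosen by the largest called change, plus Ddi2, named after its values were seen. The members and lists were chosen with earlier results of these data known. Paaf1, on the list of related genes, was not analysed here, and Psma8 and Psmb11 were too low to test.

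Alternatives were DESeq2 1.42.0, its size factors in edgeR (RLE), library size alone, other filters, only the groups compared, a replicate block, corrections for length with or without GC content, and leaving out libraries. Same-numbered libraries of 2 groups correlated at -0.128 to 0.177 in their deviations, so the numbers were not taken as pairs.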

Additional observations from a re-analysis of the deposited data

Results flagged for a closer look

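For 15 members described with values per library, the dTAG-13 effect differed between doxycycline-treated and control cells by the interaction test of edgeR (adjusted p under 0.05 over 12910 genes). The differences, on the log2 scale as the effect with doxycycline minus that without, were 0.3530 for Adrm1, 0.3477 for Psma5, 0.3424 for Psmb3, 0.3155 for Psma6, 0.3144 for Psmg3, 0.2975 for Psma7, 0.2972 for Psmg4, 0.2962 for Psma3, 0.2696 for Psmb6, 0.2587 for Psmb5, 0.2152 for Psmb7, 0.1894 for Pomp, 0.1332 for Psmd14, 0.0954 for Psme3 and -0.2562 for Psme4. These members were picked in part for large interaction values, so their makeup is not that of the list. With library size alone the calls for Psmg4, Psmb7, Psmd14 and Psme3 were lost.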

How the results depend on the processing

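Each group was 1 treated sample measured in 3 libraries, so variation between cultures was not measured. The lowest count of a member in any library was 519. With DESeq2, RLE size factors, other filters, a fit of only the groups compared (not possible for the interaction, which needs all 4) and the replicate block, all counts of called members were within 1.5 times of the reported ones and all member medians within the spread between libraries (0.0174). Of 105 fold changes of named genes, DESeq2 changed 1 call, RLE size factors 2, no filter 2, the filter at 1 CPM 1 and library size alone 15. With the replicate block, none of the 105 calls changed, and 27 members fell and 3 rose with doxycycline. The share of all genes called with the block was not worked out.

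Library size alone moved the medians to -0.0722 (doxycycline), 0.1812 (dTAG-13), 0.2796 (dTAG-13 in doxycycline-treated cells), 0.0253 (doxycycline in dTAG-13-treated cells) and 0.1073 (interaction). It gave 13 calls, 9 higher and 4 lower, for doxycycline in dTAG-13-treated cells, and 21 calls, 18 higher and 3 lower, for the interaction. With the length and GC correction the medians were -0.0694 for dTAG-13, reversed, 0.0756 for dTAG-13 in doxycycline-treated cells, 0.0221 for doxycycline in dTAG-13-treated cells and 0.1494 for the interaction. With length alone they were -0.0417, also reversed, 0.0937, 0.0262 and 0.1561. With both corrections 1 member was higher with doxycycline, and 9 were called, 8 of them higher, for doxycycline in dTAG-13-treated cells. For dTAG-13 against control 4 were higher and 22 lower with length and GC, and 8 and 21 with length alone. The share of all genes called with length alone was not worked out. The cause of these moves was not tested.

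Among named genes, fold changes called in at least 1 of the fits compared changed sign only under these corrections. Values near 0 that were called in neither changed sign under several settings, such as Psmg4 with doxycycline (-0.0227; 0.0132 with library size alone and up to 0.0762 with libraries left out). With length and GC they were Psmc6 for doxycycline (-0.0159), Psmb3 (-0.1448), Psma6 (-0.0782), Psmc6 (-0.0049), Psmb7 (-0.0513) and Psma1 (-0.0621) for dTAG-13, and Psma1 (-0.1179) for dTAG-13 in doxycycline-treated cells. With length alone they were Psmb6 (-0.0087), Psmb3 (-0.1871), Psmg4 (-0.0400), Psmb5 (-0.0201), Psmb7 (-0.0237) and Psmg3 (-0.0167) for dTAG-13, and Psma1 (-0.0017) for dTAG-13 in doxycycline-treated cells.

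With 1 library, or the 4 libraries numbered 3, left out, the medians ranged from -0.1345 to -0.0857 for doxycycline, 0.0687 to 0.1021 for dTAG-13, 0.2408 to 0.2846 for dTAG-13 in doxycycline-treated cells, 0.0463 to 0.0815 for doxycycline in dTAG-13-treated cells and 0.1641 to 0.1968 for the interaction. The members called lower ranged from 1 to 2 for the last 2 comparisons, with 2 without dTAG-13 replicate 2.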
